A study of Mus musculus with 2 samples.

Results

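Expression of 10 selenoprotein genes was examined in lingual epithelial cells of newborn mice, out of 24 selenoprotein genes and 21607 protein-coding entries in the expression table. The genes were *Sepw1*, *Sepp1*, *Gpx1*, *Gpx2*, *Gpx3*, *Gpx4*, *Txnrd1*, *Txnrd2*, *Txnrd3* and *Dio2*. They were found by their symbols, and the group was chosen by the values themselves, since *Sepw1* has the highest value of the table in both populations and *Gpx4* is among the highest. The levels, and the ratios made from them, are therefore given as a description. The cells came from pups at postnatal day 0 (P0) that carry the *Sox2GFP* allele, a green fluorescent reporter of the transcription factor SOX2, and no other treatment or allele is given for them. Lingual epithelium of many pups was dissociated with enzymes and its cells were sorted into a bright population (GFPhigh, about 100000 cells) and a dim population (GFPlow, about 100000 cells), with 1 RNAseq library each. With 1 library per population there is no replicate check on any value here, no test was run, and neighbours in the order of levels cannot be told apart from the spread between libraries. GFP brightness is a continuum from which the populations were cut.

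Selenoproteins contain selenocysteine, an amino acid that is built into a growing protein at a UGA codon, which elsewhere means stop. A stem-loop in the 3′ end of the mRNA, a binding protein (SECISBP2), a dedicated elongation factor (EEFSEC) and a dedicated tRNA let the ribosome read UGA in this way. Most selenoproteins with a known role catalyse redox reactions, in which selenocysteine sits in the active site. The glutathione peroxidases reduce peroxides, the thioredoxin reductases keep thioredoxins reduced, and the deiodinases activate or inactivate thyroid hormone. In keratinocytes, GPX4 is known for protecting the epithelium of the skin.

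In the GENCODE M21 annotation of mm10, 24 mouse genes carry an annotated selenocysteine codon, and all 24 are in the table, some under older symbols. The selenocysteine codon is what these genes share and is given here for 12 of them, the 10 genes and *Selt* and *Selm*, which share a motif with *Sepw1*. Each line gives coding sequence 5′ to 3′ on the strand of the gene from the annotated transcripts, with the TGA of the selenocysteine codon in capitals. For *Sepp1* and *Dio2*, which have more than 1 such codon, the one nearest the start is shown. The lines for the *Txnrd* genes end with the true stop codon.
Sepw1: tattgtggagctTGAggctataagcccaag
Selt: atttgtgtatccTGAgggtaccggcgggtg
Selm: acctgtggaggaTGAcagttgaatcgccta
Gpx1: gtcgcgtctctcTGAggcaccacgatccgg
Gpx2: gtggcgtcactcTGAggaacaactacccgg
Gpx3: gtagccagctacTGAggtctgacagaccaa
Gpx4: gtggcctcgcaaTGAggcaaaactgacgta
Txnrd1: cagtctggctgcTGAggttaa
Txnrd2: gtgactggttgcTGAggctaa
Txnrd3: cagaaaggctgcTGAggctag
Dio2: ggttcagccaccTGAccacctttcactagg
Sepp1: cttcaagccagcTGAtacttgtgtcttctg

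In *Sepw1*, *Selt* and *Selm* a cysteine codon (TGT) stands 3 codons before the TGA, the thioredoxin-like arrangement found in 6 of the 24 genes. In all 3 *Txnrd* genes a cysteine codon (TGC) stands directly before the TGA, and 1 codon follows it before the stop. In all 4 *Gpx* genes the TGA lies nearer to the start than to the end of the coding sequence and is followed by a glycine codon. Across the 24 genes, the transcripts examined hold 34 selenocysteine codons, of which *Sepp1* has 10 and *Dio2* has 2.

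*Sepw1* (Selenow, ENSMUSG00000041571) encodes a small thioredoxin-like protein and lies on the minus strand of chromosome 7, from 15917208 to 15922402 in mm10. Its TGA, at chr7:15920464-15920466, is codon 13 of 88 and lies in exon 2 of 6. The level of *Sepw1* was 62418 FPKM (fragments counted per kilobase of a transcript and corrected for sequencing depth) in GFPhigh cells and 46190 FPKM in GFPlow cells, rank 1 in both. This was 2.04 times the level of the next gene, *Krt13*, in GFPhigh cells, and 2.46 times that of *Krtdap* in GFPlow cells. By itself, *Sepw1* held 5.83% of the summed FPKM in GFPhigh cells and 4.62% in GFPlow cells. The annotation has 1 transcript for *Sepw1*, of 736 nt, and none of its 50-nt windows occurs in a transcript of another gene. Taken over a transcript of that length, with no correction for effective length, the FPKM would amount to 4.59% of mapped fragments in GFPhigh cells. In GFPlow cells they would amount to 3.40%. The transcript length behind the deposited FPKM is not known and no read counts were recovered, so these shares were not checked. The ratio between the populations was 1.35 toward GFPhigh cells, under the 1.5-fold used here. In both libraries together, the genes nearest to *Sepw1* in level were *Krtdap* (1.83 away on the log2 scale), *Krt13* (2.47) and *Krt5* (3.44). Since *Sepw1* has rank 1 in both, its nearest genes can only be others of very high level. No likeness to *Sepw1* is read from them.

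**Figure D1:**
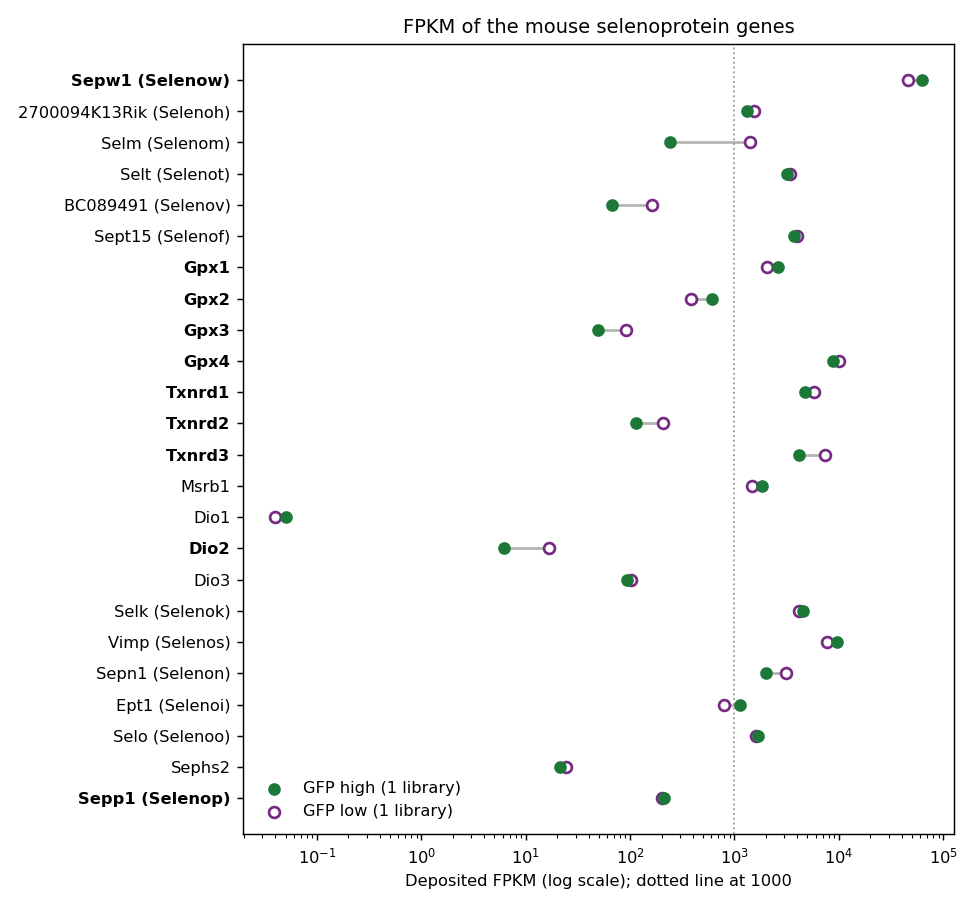
FPKM (log axis) of the 24 mouse selenoprotein genes, with the current symbol in brackets where the table uses an older one. Filled green points are the GFPhigh library, open purple points the GFPlow library, grey lines join them, bold names are the 10 genes described in full and the dotted line marks 1000 FPKM; 14 genes lie at or beyond it in each library.

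The glutathione peroxidases spanned a wide range of levels, with *Gpx4* at the top and *Gpx3* at the bottom in both populations. *Gpx4* (ENSMUSG00000075706, chromosome 10, 80047166 to 80056439, plus strand) encodes the enzyme that reduces lipid hydroperoxides in membranes, and its TGA is codon 73 of 197. Its level was 8830 FPKM in GFPhigh cells (rank 7) and 10132 FPKM in GFPlow cells (rank 4), or 1.15-fold higher in GFPlow cells. This level is uncertain, because 34.7% of its 50-nt windows also occur in transcripts of another gene, among them the pseudogene *Gpx4-ps2*. The genes nearest to *Gpx4* in both libraries were *Krt5* (0.14 on the log2 scale), *Krt15* (0.32) and *Rpl13a* (0.39).

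*Gpx1* (ENSMUSG00000063856, chromosome 9, 108338903 to 108340343, plus strand) encodes the widespread cytosolic peroxidase. It was at 2597 FPKM in GFPhigh cells and 2042 FPKM in GFPlow cells, a ratio of 1.27. *Gpx2* (ENSMUSG00000042808, chromosome 12, 76792333 to 76795554, minus strand) encodes the peroxidase known from gut and other epithelia. It was at 610 FPKM in GFPhigh cells and 381 FPKM in GFPlow cells. With a ratio of 1.60, *Gpx2* alone of the 10 genes passed 1.5-fold toward GFPhigh cells, and after scaling both libraries to equal FPKM sums the ratio was 1.4968, just under it. *Gpx2* overlaps *Fntb* on the opposite strand, and 6.03% of its 50-nt windows occur in transcripts of other genes, among them *Gpx2-ps1*. *Gpx3* (ENSMUSG00000018339, chromosome 11, 54902453 to 54910377, plus strand) encodes the secreted plasma peroxidase. It was at 48.7 FPKM in GFPhigh cells and 91.5 FPKM in GFPlow cells, 1.88-fold higher in GFPlow cells. *Gpx4* made up 73.1% of the summed FPKM of the 4 genes in GFPhigh cells and 80.1% in GFPlow cells.

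All 3 thioredoxin reductases were higher in GFPlow cells, 2 of them by more than 1.5-fold. *Txnrd1* (ENSMUSG00000020250, chromosome 10, 82833951 to 82897712, plus strand) encodes the cytosolic enzyme, and its TGA is codon 498 of 499. It was at 4743 FPKM in GFPhigh cells (rank 13) and 5815 FPKM in GFPlow cells (rank 11), 1.23-fold higher in GFPlow cells. *Txnrd3* (ENSMUSG00000000811, chromosome 6, 89643988 to 89675529, plus strand) encodes the thioredoxin glutathione reductase, best known from testis. It was at 4191 FPKM in GFPhigh cells (rank 15) and 7400 FPKM in GFPlow cells (rank 10), 1.77-fold higher in GFPlow cells. In deposited FPKM, *Txnrd1* was the higher of this pair in GFPhigh cells and *Txnrd3* in GFPlow cells. With 1 library each and ranks this close, no change of order between the populations is read from it. *Txnrd2* (ENSMUSG00000075704, chromosome 16, 18426384 to 18479073, plus strand), for the mitochondrial enzyme, was far below both. Its level was 114 FPKM in GFPhigh cells and 205 FPKM in GFPlow cells, 1.81-fold higher in GFPlow cells.

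The deiodinases were the lowest of the enzyme families. *Dio2* (ENSMUSG00000007682, chromosome 12, 90724552 to 90738438, minus strand) encodes the enzyme that makes active thyroid hormone inside cells. It was at 6.15 FPKM in GFPhigh cells and 16.6 FPKM in GFPlow cells, 2.70-fold higher in GFPlow cells and the largest ratio of the 10 genes. *Dio3*, for the enzyme that inactivates thyroid hormone, was at 94.2 FPKM in GFPhigh cells and 103 FPKM in GFPlow cells, and held 93.8% and 86.0% of the summed FPKM of the 3 deiodinase genes. *Dio1* was at 0.05 and 0.04 FPKM, 1 step of the last decimal apart, so no direction is read from it. Of 12 other genes of thyroid hormone handling, which include *Dio1* and *Dio3*, 3 were enriched in GFPlow cells and none in GFPhigh cells by the rule of 5 FPKM and 1.5-fold, which 4.44% and 4.72% of all protein-coding entries met. Among them, the hormone-responsive genes *Klf9* (34.7 and 59.5 FPKM) and *Hr* (249 and 511 FPKM) were higher in GFPlow cells by 1.72-fold and 2.06-fold. The receptor genes *Thra* (77.9 and 73.5 FPKM) and *Thrb* (7.04 and 5.74 FPKM) were higher in GFPhigh cells, by less than 1.5-fold. Whether hormone action differs between the populations was not tested.

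*Sepp1* (Selenop, ENSMUSG00000064373, chromosome 15, 3268547 to 3280508, plus strand) encodes the secreted protein that carries selenium between tissues. Its level was 212 FPKM in GFPhigh cells and 201 FPKM in GFPlow cells, a ratio of 1.05 that turned to 0.98 after scaling both libraries to equal FPKM sums. In *Sepp1*, 13.5% of the 50-nt windows occur in transcripts of *Ccdc152*, which overlaps it on the opposite strand. *Lrp8*, for a receptor of this protein, was at 7.10 FPKM in GFPhigh cells and 4.96 FPKM in GFPlow cells. *Lrp2*, for the other known receptor, was at 0.02 and 0.30 FPKM.

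By the rule of 5 FPKM in the enriched population and 1.5-fold, 1 of the 10 genes (*Gpx2*) was enriched in GFPhigh cells, where 4.72% of all protein-coding entries were. Enriched in GFPlow cells were 4 of the 10 (*Gpx3*, *Txnrd2*, *Txnrd3* and *Dio2*), where 4.44% of all protein-coding entries were. These shares are over 21590 entries, of which only 10760 reached 5 FPKM in either population and could be called. Of those 10760, 1020 were enriched in GFPhigh cells and 958 in GFPlow cells, while all 10 genes reached 5 FPKM. Nothing is read from the counts of the 10 genes, since the values that chose the group enter the ratios. The median log2 difference between GFPhigh and GFPlow cells, with 1 FPKM added to each value, was −0.25 over the 10 genes and −0.02 over all protein-coding entries.

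**Figure D2:**
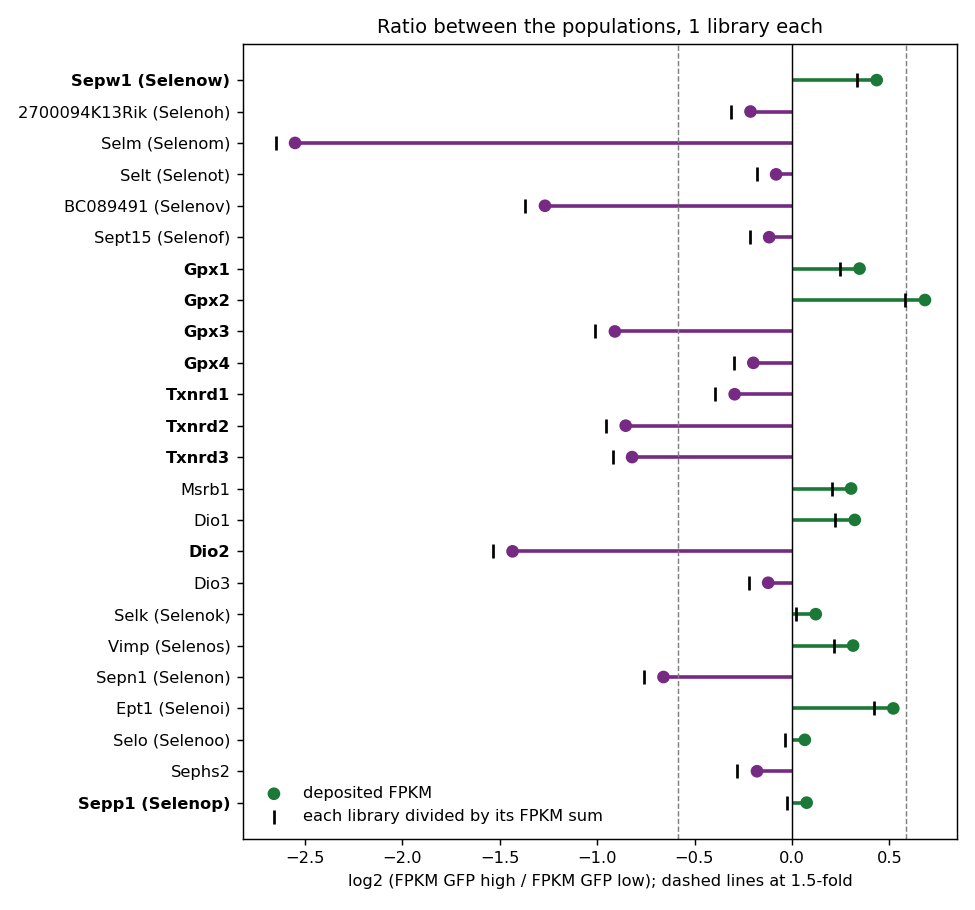
Log2 ratio of FPKM in GFPhigh over GFPlow cells for the 24 selenoprotein genes, as deposited (points and bars) and after scaling both libraries to equal FPKM sums (black ticks); dashed lines mark 1.5-fold. *Gpx2* is the only gene past the line toward GFPhigh cells, and only as deposited, while 7 genes, led by *Selm*, are past it toward GFPlow cells on both scales.

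The other 14 selenoprotein genes, which were not named in the choice of the group, ran from 0.05 to 9500 FPKM in GFPhigh cells and from 0.04 to 7644 FPKM in GFPlow cells. Of these 14 genes, 9 were at 1000 FPKM or more in GFPhigh cells and 9 in GFPlow cells. Among the protein-coding entries without a selenocysteine codon, 0.399% reached 1000 FPKM in GFPhigh cells and 0.334% in GFPlow cells. *Vimp* (Selenos) and *Selk* (Selenok) encode membrane proteins of the endoplasmic reticulum that take part in the removal of misfolded proteins. *Vimp* was at 9500 FPKM in GFPhigh cells (rank 6) and 7644 FPKM in GFPlow cells (rank 9). *Selk* was at 4526 FPKM in GFPhigh cells and 4160 FPKM in GFPlow cells (rank 14 in both), with 12.7% of its 50-nt windows in transcripts of other genes, most of them named as its pseudogenes. Selenof, listed in the table as *Sept15*, was at 3690 and 4002 FPKM, and *Selt*, for a thioredoxin-like protein of the same compartment, at 3180 and 3365 FPKM.

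In all, 14 of the 24 selenoprotein genes were at 1000 FPKM or more in each population, and 13 of them in both. The 24 genes held 10.5% of the summed FPKM in GFPhigh cells and 10.2% in GFPlow cells. They made up 8 of the 30 highest entries in GFPhigh cells and 9 of the 30 highest in GFPlow cells. Their median was 1492 FPKM in GFPhigh cells and 1501 FPKM in GFPlow cells, against medians of 31.8 and 32.6 FPKM over all entries at 5 FPKM or more in either population. The exceptions were the 3 deiodinases, *Gpx2*, *Gpx3*, *Txnrd2*, *Sepp1*, *Sephs2* and *BC089491* (Selenov), which were under 1000 FPKM in both populations. The lowest after *Dio1* and *Dio2* was *Sephs2*, at 21.5 and 24.4 FPKM, with 34.9% of its 50-nt windows in transcripts of *Gm44729*. *Sephs2* encodes the enzyme that makes the selenium donor for selenocysteine.

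The annotation gives each of the 24 genes a separate record for its selenocysteine codon. How the annotation used for the FPKM treats such records is not given in the sources used here, and whether it has a part in the level of these genes was not tested. The order of the levels is thus that of the deposited FPKM and was not checked against reads.

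**Figure D3:**
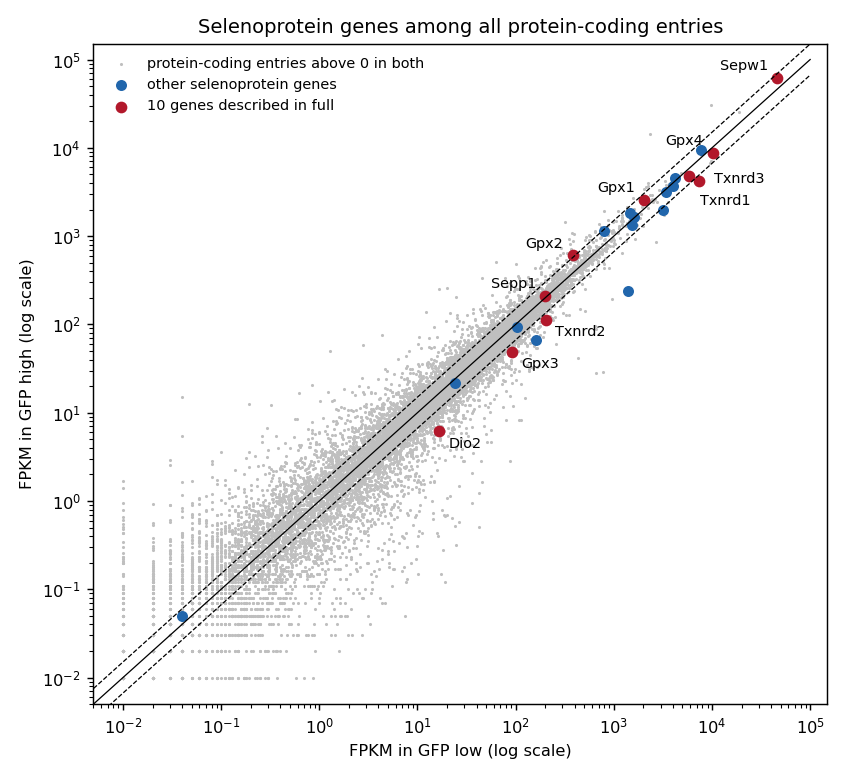
FPKM in GFPlow (x) and GFPhigh cells (y), both on log axes, for protein-coding entries above 0 in both libraries (grey), the 10 selenoprotein genes described in full (red) and the other 14 (blue). The solid line marks equal values and the dashed lines 1.5-fold; *Sepw1* is the point farthest to the upper right, at 46190 and 62418 FPKM.

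Of the other 14 genes, none was enriched in GFPhigh cells (4.72% over all protein-coding entries) and 3 were enriched in GFPlow cells (4.44%). *Selm* (Selenom), for a thioredoxin-like protein of the endoplasmic reticulum, had the largest ratio of the 24 genes. It was at 239 FPKM in GFPhigh cells and 1397 FPKM in GFPlow cells, 5.85-fold higher in GFPlow cells. *BC089491*, matched to Selenov by its identifier, was at 66.6 and 160 FPKM, 2.41-fold higher in GFPlow cells. *Sepn1* (Selenon), known from muscle, where its loss causes a myopathy, was at 1985 and 3135 FPKM, 1.58-fold higher in GFPlow cells. *Ept1* (Selenoi), an enzyme of phospholipid synthesis, was at 1130 FPKM in GFPhigh cells and 788 FPKM in GFPlow cells, a ratio of 1.43. For *Msrb1*, which repairs oxidised methionine, the values were 1817 and 1473 FPKM, a ratio of 1.23. *Selo*, a mitochondrial protein that shares 21.7% of its 50-nt windows with *Tubgcp6*, was at 1665 and 1591 FPKM, and *2700094K13Rik* (Selenoh), a nuclear protein, at 1319 and 1529 FPKM. Over the 24 genes, 10 were higher in GFPhigh cells and 14 in GFPlow cells, with a median log2 difference of −0.12, and *Sepp1* and *Selo* changed sides when the FPKM sums were made equal.

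The place of the TGA relative to the last exon junction also differed among the 24 genes. A stop codon well before the last junction can send an mRNA into nonsense-mediated decay, and selenoprotein mRNAs are known to be exposed to it when selenium is short. In 14 genes, among them *Sepw1*, *Sepp1*, *Txnrd2* and the 4 *Gpx* genes, a TGA lay more than 50 nt before the last junction. Their levels ran from 0.05 to 62418 FPKM in GFPhigh cells, with a median of 965 FPKM, and had a median of 1463 FPKM in GFPlow cells. In 8 genes, among them *Txnrd1*, *Txnrd3* and *Dio2*, the TGA lay in the last exon or within 50 nt of its junction. These had medians of 3004 FPKM in GFPhigh cells and 2875 FPKM in GFPlow cells, with levels from 6.15 to 9500 FPKM in GFPhigh cells. Levels of different genes cannot show decay, and its part in these levels was not tested. *Dio3* and *Sephs2* have a single exon.

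Genes that build selenocysteine into proteins ran from 9.39 to 287 FPKM in GFPhigh cells and from 8.38 to 232 FPKM in GFPlow cells. All 12 genes of this list were at 5 FPKM or more, and none was enriched in either population as deposited. The shares over all protein-coding entries were 4.72% (GFPhigh) and 4.44% (GFPlow). *Trit1*, for an enzyme that modifies tRNAs, was at 17.84 and 24.98 FPKM, 1.40-fold higher in GFPlow cells, and reached 1.501-fold once the FPKM sums were made equal. *Secisbp2* was at 29.3 FPKM in GFPhigh cells and 30.0 FPKM in GFPlow cells, *Eefsec* at 19.2 and 16.5 FPKM, and *Sepsecs*, for the enzyme that completes selenocysteine on its tRNA, at 11.1 and 8.38 FPKM. The highest of the list was *Rpl30*, a ribosomal protein that also binds the stem-loop, at 287 and 232 FPKM. The median log2 difference of the list was −0.01.

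Of 6 genes of selenium uptake and recycling, 1 was enriched, in GFPhigh cells, where 4.72% of all protein-coding entries were. *Selenbp1*, which binds selenium but holds no selenocysteine, was at 76.1 FPKM in GFPhigh cells and 43.4 FPKM in GFPlow cells, 1.75-fold higher in GFPhigh cells. *Scly*, for the lyase that releases selenium from selenocysteine, was at 10.4 and 10.3 FPKM.

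Relatives of the selenoproteins that use cysteine in place of selenocysteine were far lower in deposited FPKM. None of them has a selenocysteine record in the annotation, and whether such records have a part in this difference was not tested. The 7 genes of these relatives had a median of 5.86 FPKM in GFPhigh cells and 8.80 FPKM in GFPlow cells. Of them, *Gpx8* was the highest at 31.0 and 35.6 FPKM. *Gpx7*, a peroxidase of the endoplasmic reticulum, was at 5.86 FPKM in GFPhigh cells and 18.1 FPKM in GFPlow cells, 3.08-fold higher in GFPlow cells. It was the only gene of the list to be enriched, where 4.44% of all protein-coding entries were enriched in GFPlow cells. *Gpx5* was at 0.02 FPKM in GFPhigh cells and is listed at 0 in GFPlow cells.

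The partners of the thioredoxin reductases and glutathione peroxidases lay between these groups in deposited FPKM. In the thioredoxin system, which holds the thioredoxins and peroxiredoxins, none of 15 genes was enriched, and their median was 208 FPKM in GFPhigh cells and 239 FPKM in GFPlow cells. *Txn1*, the cytosolic substrate of TXNRD1, was at 347 and 299 FPKM, *Txn2*, the mitochondrial substrate of TXNRD2, at 208 and 239 FPKM, and *Txnip*, which binds and restrains thioredoxin, was highest at 661 and 747 FPKM. Of the 13 genes of glutathione supply, *Glrx*, for a glutaredoxin, was enriched in GFPhigh cells (40.8 and 20.5 FPKM, ratio 1.99). *Gclm*, for the regulatory subunit of the enzyme that starts glutathione synthesis, was enriched in GFPlow cells (112 and 189 FPKM, 1.69-fold), while *Gclc*, for its catalytic subunit, was at 110 and 98.9 FPKM. For both lists, the shares enriched over all protein-coding entries were 4.72% (GFPhigh) and 4.44% (GFPlow). *Gsr*, for the reductase that returns oxidised glutathione to its reduced form, was at 71.3 and 63.9 FPKM.

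**Figure D4:**
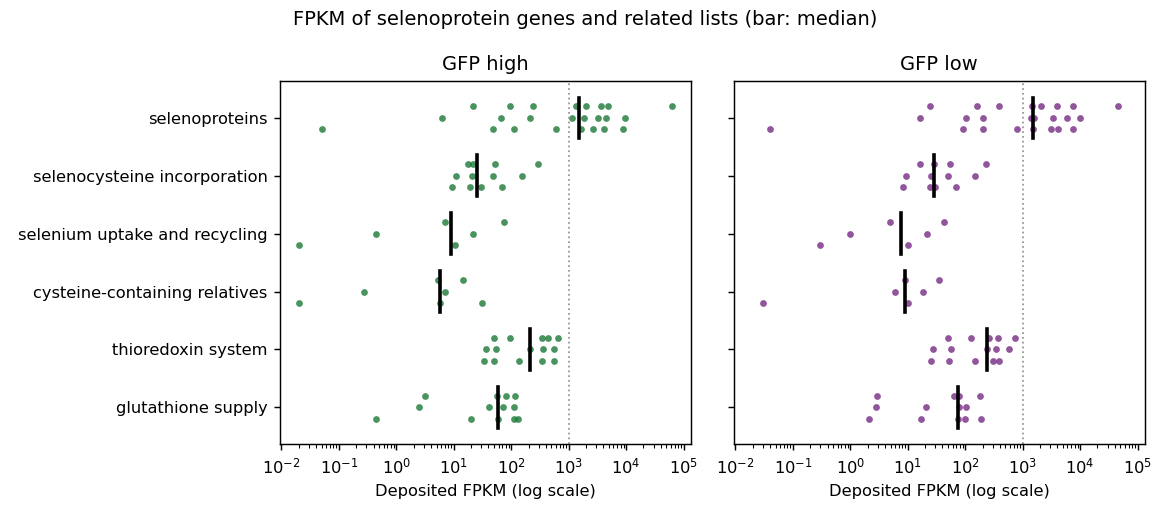
FPKM (log axis) of selenoprotein genes and of 5 lists of related genes in the GFPhigh (left) and GFPlow library (right). Each point is a gene above 0, spread vertically only for legibility, black bars are medians over the list and the dotted line marks 1000 FPKM, which no gene outside the selenoproteins reaches here.

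Both populations carried the markers of lingual epithelium, and other cell types were present at levels that differed between them. All 8 epithelial markers were above 5 FPKM in both, with *Krt5* at 9667 and 10422 FPKM, and 4 of them (*Krt13*, *Krt4*, *Epcam* and *Cdh1*) were higher in GFPhigh cells and 4 (*Krt5*, *Krt14*, *Krt15* and *Trp63*) in GFPlow cells. Their sum was 68982 FPKM in GFPhigh cells and 42646 FPKM in GFPlow cells, with *Krt13* at 30523 and 9738 FPKM and *Krt4* at 14203 and 2323 FPKM. Of 7 fibroblast markers, 6 were higher in GFPlow cells, 5 of them enriched (4.44% over all protein-coding entries), and 1 was higher in GFPhigh cells. None of the 7 was at 0, and their summed level was 464 FPKM in GFPhigh cells and 1856 FPKM in GFPlow cells. Of 5 Schwann and neural crest markers, 4 were enriched in GFPlow cells (4.44% over all protein-coding entries) and none was at 0. The sum of these 5 was 67.2 and 252 FPKM. These sums moved in the direction of *Gpx3*, *Txnrd2*, *Txnrd3*, *Dio2*, *Selm*, *Sepn1*, *BC089491* and *Gpx7*, and their part in the levels of these genes was not tested. All 6 erythroid markers were higher in GFPhigh cells, 3 of them enriched (4.72% over all protein-coding entries), with sums of 118 and 41.0 FPKM. Markers of macrophages (7 genes, sums of 18.0 and 20.3 FPKM, none at 0), skeletal muscle (7 genes, 20.7 and 19.2 FPKM, none at 0) and endothelium (5 genes, 14.3 and 7.81 FPKM, none at 0) were low in both. Of 5 melanocyte markers (sums of 18.5 and 3.76 FPKM), 2 were higher in GFPhigh cells and 2 in GFPlow cells, and *Tyr* is listed at 0 in both. Most of the GFPhigh sum came from 1 marker, at 17.2 and 1.24 FPKM, so the sums do not stand for the set. All 5 taste markers were enriched in GFPhigh cells (4.72% over all protein-coding entries), with a sum of 328 and 33.8 FPKM and none at 0. The erythroid and taste sums, and *Krt13* and *Krt4*, moved in the direction of *Sepw1*, *Gpx1*, *Gpx2*, *Selenbp1* and *Glrx*, and their part in these levels was not tested. In such bulk samples, fewer cells of a type and less RNA per cell cannot be told apart.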

How the data were processed

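Per the labels and the methods of the study, the authors made stranded mRNA libraries, sequenced single-end reads of 50 nt to about 75M reads per sample, trimmed them with Trimmomatic 0.36, mapped them to mm10 with GSNAP and obtained FPKM with Cufflinks 2.2.1. The deposited FPKM are rounded to 2 decimals, and each column is headed as a mean but stands for 1 library. The annotation behind the FPKM and its use of strand are not given in the sources used here. The deposited fold column, the authors' own comparison, was not used. Low FPKM of genes with 1 transcript lay within 0.15 of a whole read for 55.2% of 393 values (GFPhigh) and 49.3% of 410 (GFPlow) at the depth that fitted best, so no read counts were recovered, the depth behind each FPKM is unknown and no count test was run.

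Ratios are those of the deposited FPKM. Enrichment meant a ratio of at least 1.5 with no less than 5 FPKM on the higher side. The methods of the study ask for 5 FPKM in each sample, which gave 777 GFPhigh and 633 GFPlow entries in place of 1020 and 958 and left the counts of selenoprotein genes as they were. Entries typed other than protein-coding in GENCODE M21 were left out, as were 17 entries without a number in either column. Any entry whose identifier has no type in M21 was kept and counted as protein-coding. Genes were matched by Ensembl identifier. Windows of 50 nt were compared, on both strands, with all M21 transcripts, not with the genome. The members and gene lists were chosen with earlier results of these data known. Genes named are the members, all other selenoproteins, list genes that were enriched or highest in their list, the 3 genes nearest to *Sepw1* and *Gpx4*, the highest genes and cell type markers; further list genes were named after their values were seen. The calls were tested on simulated data. Python 3.11.15, pandas 2.3.3, numpy 2.4.6 and matplotlib 3.10.9 were used. Alternatives were other scalings, pseudocounts, FPKM minimums and a 2-fold minimum. A few genes are not reported here by name.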

Additional observations from a re-analysis of the deposited data

How the results depend on the processing

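Each value rests on 1 library, so no replicate could be left out, and depth limits *Dio1* and other genes near 0. Of 40 ratios of the 10 genes under other scalings and pseudocounts, 38 kept their direction and their side of the rule. After scaling both libraries to equal FPKM sums, which lowers every log2 ratio by 0.10, *Sepp1* turned to 0.983 and *Gpx2* fell to 1.497, which left 0 of the 10 genes and 0 of the 24 selenoprotein genes enriched in GFPhigh cells. With a 2-fold minimum, 0 of the 10 genes and 0 of the 24 were enriched in GFPhigh cells, and 1 of the 10 (*Dio2*) and 3 of the 24 in GFPlow cells. Over all protein-coding entries, a 2-fold minimum gave 448 GFPhigh and 467 GFPlow entries in place of 1020 and 958, no FPKM minimum gave 3131 and 3248, and 5 FPKM in both populations gave 633 GFPlow entries. The median log2 difference of melanocyte markers turned to 3.02 when markers averaging under 1 FPKM were left out. That limit left a single marker, so 3.02 is its value and not that of a set. An alternative added after the data were seen, leaving out the 5 selenoprotein genes that share at least 10% of their 50-nt windows, moved their median FPKM by less than 1.5 times.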

Other observations

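Among genes that govern lipid peroxides and iron, the setting in which GPX4 acts, 3 of 14 were enriched in GFPhigh cells, where 4.72% of all protein-coding entries were, and none in GFPlow cells. *Alox12*, for a lipoxygenase that makes lipid hydroperoxides, was at 78.7 FPKM in GFPhigh cells and 28.1 FPKM in GFPlow cells, a ratio of 2.80. *Slc40a1*, for the iron exporter ferroportin, was at 18.3 and 6.91 FPKM (ratio 2.65), and *Acsl4*, for an enzyme that activates polyunsaturated fatty acids, at 21.2 and 13.4 FPKM (ratio 1.59). The ratio of *Acsl4* was 1.48 once the FPKM sums were made equal, under the 1.5-fold minimum. The ferritin heavy chain gene *Fth1* was the highest of the list at 1315 and 1125 FPKM. The median log2 difference was 0.27, against −0.02 over all protein-coding entries. Erythroid markers were higher in GFPhigh cells as well, and their part in the values of *Slc40a1* was not tested.

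Genes linked to NRF2, the transcription factor that answers oxidants and is known to act on *Txnrd1*, did not all move one way. Of 13 genes, *Pgd* (172 and 103 FPKM, ratio 1.67) and *Me1* (31.6 and 21.01 FPKM, ratio 1.502), both for enzymes that make NADPH, were enriched in GFPhigh cells and *Gclm* in GFPlow cells. With equal FPKM sums the ratio of *Me1* was 1.40, under the minimum. Of all protein-coding entries, 4.72% were enriched in GFPhigh cells and 4.44% in GFPlow cells, and nothing is read from so few genes. *Nfe2l2*, which encodes NRF2, was at 96.0 and 84.3 FPKM, *Nqo1* at 30.0 and 23.2 FPKM and *Hmox1* at 18.2 and 18.9 FPKM. *Slc7a11*, for the cystine transporter, was at 0.45 FPKM in GFPhigh cells and 2.83 FPKM in GFPlow cells, under 5 FPKM in both.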
